A study of Mus musculus with 6 samples.

Results

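The genes described here are 9 genes of satellite cell identity centred on *Pax7*. They are the transcription factor genes *Pax7*, *Pax3* and *Six4*, and the surface protein genes *Cd34*, *Calcr*, *Vcam1*, *Itga7*, *Sdc4* and *Sdc3*. They were looked up by symbol in a table of nascent transcription that lists 14546 protein-coding genes of the mouse, which holds 8 of the 9. *Calcr*, the calcitonin receptor gene, is not among the genes listed and is not analysed here. Precision nuclear run-on sequencing (PRO-seq) was used: engaged RNA polymerases in isolated nuclei extend their transcripts with biotin-labelled nucleotides, which are then purified and read, so the values show where polymerase is transcribing rather than how much mature RNA is present. The study compared cultured, proliferating muscle stem cells (MuSCs) of 2 genotypes, with 3 libraries each. Both carry the Pax7CreERT allele, labelled with Suv4-20h1WT in Ctrl and with Suv4-20h1KO in *Kmt5b* sKO; Suv4-20h1 is another name of KMT5B, a histone methyltransferase that acts on lysine 20 of histone H4. The methods describe *Kmt5b* flox/flox mice for the knockout and *Kmt5b* +/+ mice for the control, all on a C57BL/6 background and treated with tamoxifen as young adults. MuSCs of limb and trunk muscle were purified on a gradient and with magnetic beads before they were grown in serum with LIF and bFGF.

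Because the Cre is driven by the *Pax7* locus in both genotypes, every library comes from cells with a modified *Pax7* allele, and no library here shows *Pax7* without it. The study calls the libraries biological replicates, and the labels do not say which animals, or how many, stand behind each.

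Satellite cells are the resident stem cells of skeletal muscle and lie between the fibre membrane and its basal lamina. PAX7 is the transcription factor that defines them and is needed for their maintenance, PAX3 is its close relative, which marks muscle progenitors of the embryo and a part of the adult cells, and SIX4 is a homeobox factor that acts with EYA cofactors upstream of the myogenic program. The surface proteins tie the cell to its niche: integrin alpha-7 binds laminin, VCAM1 binds alpha-4 integrin, the syndecans carry heparan sulfate chains that hold growth factors, and CD34 is a sialomucin found on quiescent satellite cells. In culture the cells leave quiescence, divide and later differentiate, and many of the surface markers change with that transition.

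Promoter sequence from RefSeq (GRCm38.p6), 250 bases before to 50 bases after a gene's start, was at hand for 5 of the 8 listed genes, *Pax7*, *Six4*, *Sdc4*, *Sdc3* and *Cd34*. These windows differed widely in CpG dinucleotides. The *Sdc3* window held 44, above 97.8% of the 32851 promoters, *Sdc4* held 22, *Pax7* 17 and the 2 *Six4* windows 16 and 15. The *Cd34* window held 7, which is the median of all promoters. The bases before the start of the listed *Sdc4*, *Sdc3* and *Cd34* transcripts are shown because they span this range, with the CpG dinucleotides in capitals, each 5′ to 3′ on the strand of the gene. They lie at chr2:164443187-164443438 on the minus strand (*Sdc4*), chr4:130792287-130792536 on the plus strand (*Sdc3*) and chr1:194938571-194938818 on the plus strand (*Cd34*).
Sdc4: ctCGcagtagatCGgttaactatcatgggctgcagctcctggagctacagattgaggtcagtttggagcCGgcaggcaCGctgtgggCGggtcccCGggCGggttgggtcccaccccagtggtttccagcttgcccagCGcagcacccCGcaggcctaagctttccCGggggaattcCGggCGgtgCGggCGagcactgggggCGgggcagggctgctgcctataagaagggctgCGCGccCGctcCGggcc
Sdc3: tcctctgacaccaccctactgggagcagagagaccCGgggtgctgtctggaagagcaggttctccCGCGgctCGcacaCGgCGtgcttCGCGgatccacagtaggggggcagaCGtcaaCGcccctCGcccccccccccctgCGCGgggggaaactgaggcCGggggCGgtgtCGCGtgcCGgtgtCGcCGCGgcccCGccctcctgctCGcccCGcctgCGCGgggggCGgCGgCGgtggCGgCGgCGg
Cd34: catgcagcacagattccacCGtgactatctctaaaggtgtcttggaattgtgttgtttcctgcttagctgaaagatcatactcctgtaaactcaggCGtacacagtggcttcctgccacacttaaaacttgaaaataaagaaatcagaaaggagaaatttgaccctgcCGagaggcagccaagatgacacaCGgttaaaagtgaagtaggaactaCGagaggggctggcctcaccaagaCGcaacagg
On both strands, the letters GGGCGG, the core of a GC box, occurred 4 times in the *Sdc4* window, 3 times in *Sdc3* and once in *Pax7* and in each *Six4* window, whereas the *Cd34* window had none. They occur in 35.7% of all promoters. The TATAAA letters were in none of these windows and in 13.6% of all promoters. The E-box pattern CANNTG, which myogenic factors recognise, was likewise in none of them and in 72.3% of all promoters, and CCAAT was in 1 of the *Six4* windows only and in 37.4% of all promoters.

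For each gene the table holds 1 isoform and 2 values per library. The TSS region is the first 400 nt from the transcription start site (TSS), given as RPM, in which every library is brought to a common size. The gene body is the rest of the transcript and is given as TPM, which also divides by length, so TPM values can be compared between genes. Both are scaled to a fixed total, and a change of total transcription cannot appear in them. The values proved to be whole multiples of the value of 1 read, from which the reads behind them were recovered. Per library, the TSS regions of the listed genes held 926904 to 3246052 reads and their gene bodies 7425424 to 16249299. The comparison took in 12451 genes whose mean reached 0.5 in each region, leaving out chromosomes X and Y. It was made by limma on log2(value + 0.5), and genes were called where the p adjusted by Benjamini-Hochberg was under 0.1. SE is the standard error of a log2 fold change, and sets of 3 values are given in the order of the replicate numbers. All 8 genes passed these filters. In the gene body *Cd34* did so only through the knockout libraries, with means of 0.16 TPM in Ctrl, 0.85 TPM in *Kmt5b* sKO and 0.51 TPM over all 6 libraries. Low values are pulled towards a fold change of 0 by the added 0.5. The targeted gene *Kmt5b* itself did not fall, with a log2 fold change of 0.27 in the TSS region (adjusted p = 0.72, limma) and 0.14 in the gene body (adjusted p = 0.71), so these values do not check the genotypes, which rest on the labels.

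The label of muscle stem cells was checked against marker genes in the gene body. All 6 markers of MuSCs and myoblasts (*Pax7*, *Myf5*, *Myod1*, *Cdh15*, *Des*, *Itga7*) had a mean above 10 TPM, and their sum ranged from 1492 to 2257 TPM in Ctrl and from 2000 to 2712 TPM in *Kmt5b* sKO. Of the 7 endothelial markers 5 are in the table, none with a mean above 10 TPM, and they summed to between 13.8 and 22.7 TPM. Of the 6 fibro-adipogenic and tendon markers 3 are in the table, and they summed to between 4.86 and 9.78 TPM. Among blood cell markers *Ptprc*, *Adgre1*, *Csf1r* and *Lyz2* are not in the table, and the 2 that are summed to between 214 and 402 TPM. Nearly all of this was *Cd68*, a lysosomal gene, and *Itgam* held between 0.31 and 0.65 TPM. The 4 pericyte markers in the table summed to between 30.4 and 65.6 TPM, mainly through *Cspg4* (mean 39.4 TPM), and *Pdgfrb* held 24.7 TPM in Ctrl replicate 2. Both of the next lists separated the genotypes: the 5 mature fibre markers summed to between 57.4 and 111 TPM in Ctrl and between 113 and 182 TPM in *Kmt5b* sKO, and the 4 Schwann cell markers to between 12.1 and 15.9 TPM in Ctrl and between 20.2 and 27.0 TPM in *Kmt5b* sKO, where *Sox10* alone was called (log2 fold change 1.56, adjusted p = 0.075, limma). Their part in the results below was not tested.

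None of the 8 genes was called between the genotypes in the TSS region, where 1.66% of all tested genes were called, and none in the gene body, where 2.99% were. For the pausing index, the ratio of the TSS value to the gene body value, none of the 7 genes that could be tested was called, against 0% of all 11698 genes. At an unadjusted p under 0.05 limma counted 0 of the 8 genes in the TSS region (11% of all genes), 1 in the gene body (*Cd34*; 15.9% of all genes) and 1 of 7 for the pausing index (*Pax3*; 3.86% of all genes). By edgeR on the recovered reads 0 of the 8 were called in the TSS region (2.24% of all genes) and 0 in the gene body (6.01%). DESeq2 called 0 of the 8 in the TSS region (2.37% of all genes) and 1 in the gene body, *Cd34*, where it called 10.4% of all genes. Over the 8 genes the TSS region had a median log2 fold change of 0.28 and the gene body one of -0.13, beside 0.08 and 0.02 over all tested genes. The confidence intervals of several genes are wide and include changes of considerable size, so a missing call does not show that the genotypes transcribe them alike.

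**Figure D1:**
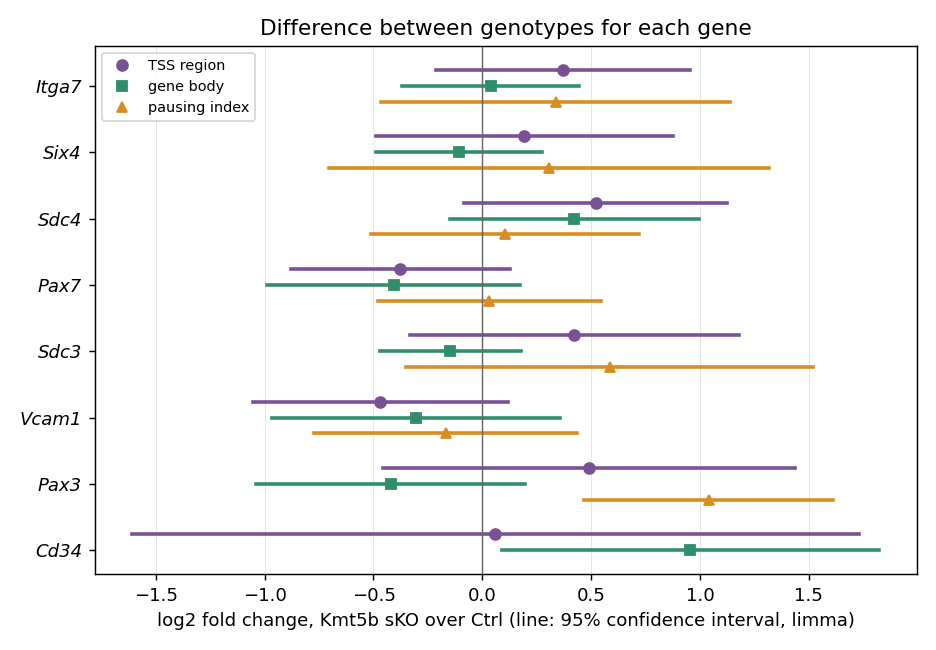
Log2 fold change of *Kmt5b* sKO over Ctrl MuSCs for each gene in the TSS region, the gene body and the pausing index, with 95% confidence intervals from limma (3 libraries per genotype). The intervals that lie wholly above 0 are those of the *Pax3* pausing index and the *Cd34* gene body, neither of which passed the adjusted threshold. *Cd34* passed the filter on gene body means only through the knockout libraries, so its interval is no support for a difference.

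The *Pax7* gene (ENSMUSG00000028736) is listed by its transcript Pax7-202 on the minus strand of chromosome 4 from 139740676 to 139833007, which starts 521 nt downstream of the first annotated start of the gene. Its gene body of 91931 nt is almost wholly intronic, with 1.68% in exons. The gene body held 53.7, 36.1 and 26.0 TPM across the Ctrl libraries against 25.5, 29.5 and 28.3 TPM across the knockout libraries. Ctrl replicate 1 stood above the 5 other libraries, Ctrl replicate 3 lay at the level of the knockout libraries, and the groups overlapped. The Ctrl mean was 38.6 ± 14.0 TPM (SD, n = 3), and that of the knockout 27.8 ± 2.07 TPM (SD, n = 3). The log2 fold change of -0.41 (SE 0.25, 95% confidence interval -0.99 to 0.17) had an adjusted p of 0.50 from limma. It was -0.14 without Ctrl replicate 1 and -0.66 without Ctrl replicate 3 (adjusted p = 0.12, limma), the ends of the range over the 6 omissions of a library. In cultures of this kind, fewer cells that transcribe a gene and less transcription per cell cannot be told apart.

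Over the first 400 nt of *Pax7* the order of the libraries was similar. The TSS values were 97.6, 68.4 and 53.4 RPM across the Ctrl libraries against 57.4, 50.2 and 56.1 RPM across the knockout libraries, behind which lay between 76 and 403 reads. Again Ctrl replicate 1 was highest and Ctrl replicate 3 fell among the knockout libraries. The log2 fold change was -0.38 (SE 0.24, adjusted p = 0.64, limma), and it ranged from -0.58 without Ctrl replicate 3 to -0.15 without Ctrl replicate 1. The pausing index of *Pax7* was 1.82, 1.89 and 2.05 across the Ctrl libraries against 2.25, 1.70 and 1.98 across the knockout libraries. These values interleaved, and the log2 fold change of the index was 0.03 (95% confidence interval -0.48 to 0.55). The spread of *Pax7* differed between the genotypes. The SD of its log2 gene body value was 0.52 over the Ctrl libraries, above 85.6% of all tested genes, and 0.11 over the *Kmt5b* sKO libraries, above 24.3%; the difference in spread was not tested.

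The genes whose gene body values over the 6 libraries were most like those of *Pax7* were found by the root mean square difference of the log2 values, after each gene was centred on its mean. They were *Man2a1* (0.085), *Klhdc10* (0.089), *Xrcc1* (0.095), *Cmtm7* (0.096) and *Fiz1* (0.098), compared with a median of 0.42 over the 12450 other genes. In all 5 of them Ctrl replicate 1 had the highest value of the 6 libraries, as in *Pax7*. None of the 5 was called (adjusted p from 0.35 to 0.65, limma). Among the other stemness genes *Itga7* came closest, at rank 1031 of 12450, followed by *Sdc3* at rank 1464, while *Six4* (6698), *Pax3* (7372), *Vcam1* (10368), *Sdc4* (10822) and *Cd34* (11880) lay in the farther part of the order. The libraries, and with them depth, are shared by all these values.

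**Figure D2:**
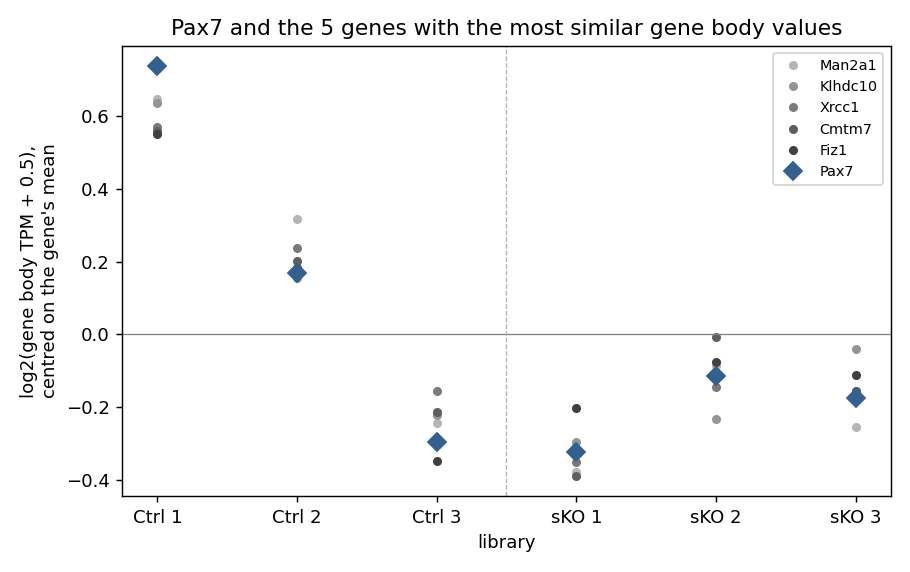
Gene body values of *Pax7* (diamonds) and of the 5 genes most like it (circles), as log2(TPM + 0.5) centred on the mean of each gene, in the 3 Ctrl and 3 *Kmt5b* sKO libraries. Ctrl replicate 1 lies highest for all 6 genes, and Ctrl replicate 3 falls among the knockout libraries for each of them but *Fiz1*, where it lies lowest.

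The paralogue *Pax3* (ENSMUSG00000004872) is listed by Pax3-202 on the minus strand of chromosome 1 from 78101270 to 78197134. Its transcription was low, with a mean gene body level of 2.98 TPM against 33.2 TPM for *Pax7*. The gene body held 2.81, 4.18 and 3.36 TPM across the Ctrl libraries against 2.31, 3.49 and 1.72 TPM across the knockout libraries. In *Kmt5b* sKO replicate 2 the value exceeded those of Ctrl replicates 1 and 3, so the groups overlapped, and the log2 fold change was -0.42 (SE 0.27, adjusted p = 0.52, limma), with -0.65 on leaving out that library and -0.22 on leaving out *Kmt5b* sKO replicate 3. The TSS values were 3.39, 6.32 and 3.60 RPM across the Ctrl libraries against 7.21, 7.92 and 4.14 RPM across the knockout libraries. Here the estimate pointed the other way, with a log2 fold change of 0.49 (SE 0.45, adjusted p = 0.79, limma), which was 0.33 without *Kmt5b* sKO replicate 2 and 0.76 without replicate 3.

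Between the regions of *Pax3* the balance differed by genotype more than for any other of the 7 genes. Its pausing index was 1.21, 1.51 and 1.07 across the Ctrl libraries against 3.12, 2.27 and 2.41 across the knockout libraries. All 3 knockout libraries lay above all 3 Ctrl libraries, a separation in this direction that 5.93% of the 11698 genes tested showed (9.02% in either direction). The index was 2.06-fold higher in *Kmt5b* sKO (95% confidence interval 1.38 to 3.06), with an unadjusted p of 0.0027 and an adjusted p of 0.98 from limma. Leaving out each library in turn kept the log2 fold change between 0.90 and 1.18. The TSS values behind this index rest on 9 to 22 reads per library.

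*Six4* (ENSMUSG00000034460), listed by Six4-201 on the minus strand of chromosome 12 from 73099609 to 73113425, was the factor gene with the most gene body transcription. Its gene body held 102, 96.8 and 121 TPM across the Ctrl libraries against 101, 83.6 and 114 TPM across the knockout libraries. The values overlapped and spanned a narrow range, and the log2 fold change was -0.11 (SE 0.16, adjusted p = 0.82, limma). In the TSS region it held 17.2, 22.4 and 12.9 RPM across the Ctrl libraries against 23.3, 13.2 and 24.4 RPM across the knockout libraries. With Ctrl replicate 2 just below the higher knockout libraries and *Kmt5b* sKO replicate 2 among the low values, the groups overlapped there too (log2 fold change 0.19, adjusted p = 0.90, limma). Both estimates lay close to 0, and each changed its sign when 1 library was left out: the TSS value was -0.0030 without Ctrl replicate 3 and the gene body value 0.012 without *Kmt5b* sKO replicate 2.

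Among the surface protein genes, *Itga7* (ENSMUSG00000025348), which encodes the laminin-binding integrin alpha-7, had the highest gene body level of the 8. It is listed by Itga7-202 on the plus strand of chromosome 10 from 128933820 to 128958279, a span that also holds the small nuclear RNA gene *Gm25494* on the same strand. Its gene body held 153, 121 and 102 TPM across the Ctrl libraries against 122, 122 and 138 TPM across the knockout libraries. The Ctrl libraries enclosed the knockout libraries on both sides, and the means of 125 ± 26.0 and 127 ± 9.31 TPM (SD, n = 3) were not distinguishable (log2 fold change 0.04, 95% confidence interval -0.37 to 0.45, adjusted p = 0.95, limma). This sign turned without Ctrl replicate 3 (-0.10), without *Kmt5b* sKO replicate 3 (-0.02) and with DESeq2 (-0.0021). The TSS region held 45.5, 40.8 and 27.9 RPM across the Ctrl libraries against 42.3, 37.0 and 72.2 RPM across the knockout libraries. *Kmt5b* sKO replicate 3 stood highest, while replicates 1 and 2 of the knockout lay within the Ctrl range (log2 fold change 0.37, adjusted p = 0.71, limma). The estimate was 0.085 without *Kmt5b* sKO replicate 3 and 0.56 without *Kmt5b* sKO replicate 2.

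*Vcam1* (ENSMUSG00000027962), the gene of an adhesion receptor of the immunoglobulin family, is listed on the minus strand of chromosome 3 from 116122280 to 116129457 by Vcam1-203, a short transcript that starts 231 nt downstream of the first annotated start and leaves a gene body of only 6777 nt. The antisense gene *Gm43109* overlaps its TSS region on the other strand, and only reads of the sense strand were counted. The gene body held 22.2, 19.1 and 39.8 TPM across the Ctrl libraries against 23.0, 23.2 and 16.6 TPM across the knockout libraries. Ctrl replicate 3 was the highest library and the other 5 lay close together, so the log2 fold change of -0.30 (SE 0.28, adjusted p = 0.68, limma) became 0.0070 without it and -0.51 without Ctrl replicate 2. In the TSS region *Vcam1* held 24.2, 28.2 and 39.0 RPM across the Ctrl libraries against 21.3, 25.8 and 17.9 RPM across the knockout libraries. Only *Kmt5b* sKO replicate 2 exceeded a Ctrl library there. The log2 fold change was -0.47 (SE 0.28, adjusted p = 0.60, limma), with a range from -0.62 without Ctrl replicate 1 to -0.28 without Ctrl replicate 3.

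The syndecan gene *Sdc4* (ENSMUSG00000017009), needed for satellite cell activation, is listed by Sdc4-201 on the minus strand of chromosome 2 from 164424247 to 164443186, 701 nt downstream of the first annotated start. Its gene body held 29.2, 37.4 and 42.2 TPM across the Ctrl libraries against 33.9, 54.4 and 60.9 TPM across the knockout libraries. Replicates 2 and 3 of the knockout lay above all Ctrl libraries and replicate 1 within their range. The log2 fold change was 0.42 (95% confidence interval -0.15 to 0.99, adjusted p = 0.47, limma), and it was 0.26 without *Kmt5b* sKO replicate 3 and 0.67 without *Kmt5b* sKO replicate 1. The TSS values were 16.5, 19.5 and 24.8 RPM across the Ctrl libraries against 21.3, 32.4 and 35.0 RPM across the knockout libraries. Again replicates 2 and 3 of the knockout were the highest libraries and replicate 1 lay within the Ctrl range, and the log2 fold change was 0.52 (95% confidence interval -0.08 to 1.13, adjusted p = 0.56, limma). Here the omissions gave 0.38 (Ctrl replicate 1) to 0.74 (*Kmt5b* sKO replicate 1). Both regions of *Sdc4* thus had higher means in *Kmt5b* sKO, and its pausing index varied least, between 0.52 and 0.63 in all 6 libraries.

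*Sdc3* (ENSMUSG00000025743), the other syndecan gene, is listed by Sdc3-201 on the plus strand of chromosome 4 from 130792537 to 130826319. Its gene body held 31.2, 34.4 and 26.9 TPM across the Ctrl libraries against 25.4, 28.8 and 28.9 TPM across the knockout libraries. The groups overlapped, with a log2 fold change of -0.15 (SE 0.14, adjusted p = 0.69, limma), which was -0.24 without Ctrl replicate 3 and -0.066 without Ctrl replicate 2. The TSS region held 9.68, 16.7 and 13.1 RPM across the Ctrl libraries against 18.7, 26.4 and 10.6 RPM across the knockout libraries. Replicates 1 and 2 of the knockout lay above the Ctrl libraries and replicate 3 within their range (log2 fold change 0.42, SE 0.36, adjusted p = 0.76, limma). It shrank to 0.13 when *Kmt5b* sKO replicate 2 was left out and grew to 0.77 when *Kmt5b* sKO replicate 3 was. For this gene the estimates for the regions had opposite signs, as for *Pax3*, *Six4* and no other of the 8.

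*Cd34* (ENSMUSG00000016494) is listed by Cd34-201 on the plus strand of chromosome 1 from 194938819 to 194961279, and it was hardly transcribed in these cultures. Its gene body held 0.15, 0.04 and 0.29 TPM across the Ctrl libraries against 0.45, 1.59 and 0.52 TPM across the knockout libraries, which rest on 5, 1 and 9 reads and on 11, 23 and 11 reads. The knockout libraries all lay above the Ctrl libraries, a separation in this direction that 12% of all tested genes showed in the gene body (21.4% in either direction); in the TSS region the libraries of none of the 8 genes separated by genotype, against 15.6% of all genes. On the log2(TPM + 0.5) scale the fold change was 0.96 (SE 0.37, unadjusted p = 0.035, adjusted p = 0.27, limma). DESeq2 on the reads gave a log2 fold change of 2.31 with an adjusted p of 0.067, the lowest of a range from 0.067 to 0.48 over all alternatives, and edgeR gave 2.22 with an adjusted p of 0.17. The log2 fold change was 0.59 without *Kmt5b* sKO replicate 2, which held the most reads. Only the knockout libraries carried *Cd34* over the filter on gene body means. The separation and the p-values of its gene body are therefore no support for a difference between the genotypes. In the TSS region *Cd34* held 1.21, 0.57 and 0.38 RPM across the Ctrl libraries against 0, 3.30 and 0.46 RPM across the knockout libraries, from 0 to 5 reads. A direction could not be read from them (log2 fold change 0.06, 95% confidence interval -1.61 to 1.73). At 0 reads, up to 3 reads of the 1841069 in the TSS regions of that library cannot be told from none, and these limits cover counting error only.

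**Figure D3:**
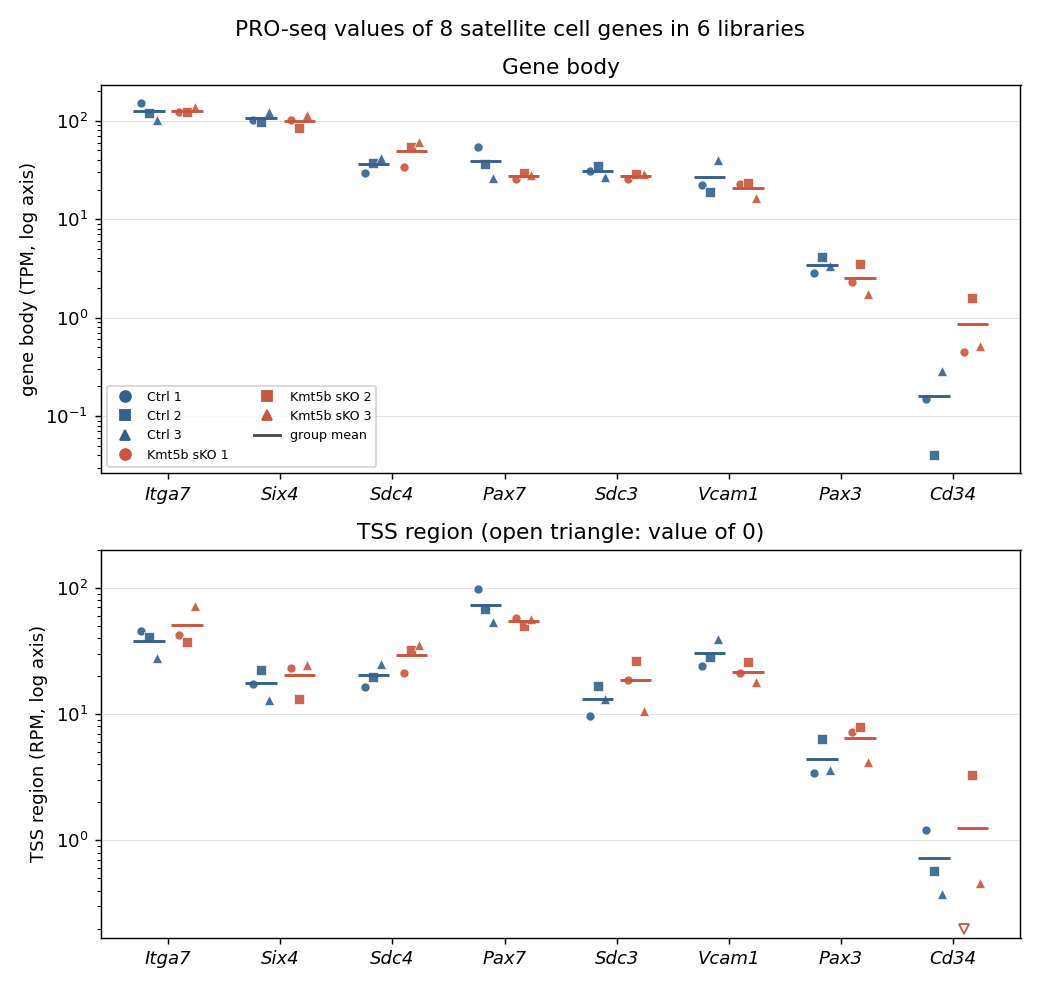
Gene body (TPM, upper panel) and TSS region (RPM, lower panel) values of the 8 genes on log axes, with 1 point per library and a line at the group mean; the open triangle marks the *Cd34* value of 0 in *Kmt5b* sKO replicate 1. Genotypes overlap for each gene except in the gene body of *Cd34*, which passed the filter there only through the knockout libraries. The genes span from 0.51 TPM (*Cd34*) to 126 TPM (*Itga7*) in their mean gene body level.

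Ordered by mean gene body level over all 6 libraries, *Itga7* (126 TPM) was followed by *Six4* (103 TPM), *Sdc4* (43.0 TPM), *Pax7* (33.2 TPM), *Sdc3* (29.3 TPM), *Vcam1* (24.0 TPM), *Pax3* (2.98 TPM) and *Cd34* (0.51 TPM). *Itga7* and *Six4* stood above 96.7% and 95.7% of all tested genes, *Pax7* above 78.5% and *Pax3* above 11.5%. The ranges over libraries did not overlap between *Six4* and *Sdc4*, between *Vcam1* and *Pax3* or between *Pax3* and *Cd34*. *Itga7* and *Six4* overlapped, with *Itga7* the higher in 5 of the 6 libraries. *Sdc4*, *Pax7*, *Sdc3* and *Vcam1* overlapped from each to the next. *Sdc4* exceeded *Pax7* in 5 of the 6 libraries, *Pax7* exceeded *Sdc3* in 4 and *Sdc3* exceeded *Vcam1* in 5, while *Sdc4* exceeded *Vcam1* in all 6.

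By the TSS region, which has the same length in every gene, the order was another. *Pax7* led with a mean of 63.8 RPM, above 83.5% of the tested genes, ahead of *Itga7* (44.3 RPM), *Vcam1* (26.1 RPM) and *Sdc4* (24.9 RPM). These places overlapped: *Pax7* exceeded *Itga7* in every library except *Kmt5b* sKO replicate 3 (56.1 against 72.2 RPM). *Vcam1* exceeded *Sdc4* in every Ctrl library but in no knockout library. *Six4* with 18.9 RPM stood above 43.7% of the tested genes. Accordingly the pausing index set the genes apart. It averaged 1.95 for *Pax7*, somewhat above the library medians over all genes, which ranged from 1.47 to 1.61. For *Pax3* it ran from 1.07 to 1.51 in Ctrl, within or below the range of these medians, and from 2.27 to 3.12 in *Kmt5b* sKO, above it. *Vcam1* averaged 1.11, *Sdc4* 0.58 and *Sdc3* 0.55. The lowest were *Itga7* with 0.35, below which 6.35% of the genes lay, and *Six4* with 0.18, below which 2.40% lay. For *Six4* the index ranged from 0.11 to 0.23 over the libraries, and its highest value was under the lowest of *Itga7*, 0.27. *Cd34* has no index in the library without a TSS read and was not tested. The start of the listed isoform sets which reads fall into the TSS region. An annotated start lies further upstream for *Sdc4* (701 nt), *Pax7* (521 nt), *Vcam1* (231 nt), *Six4* (31 nt) and *Itga7* (2 nt).

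**Figure D4:**
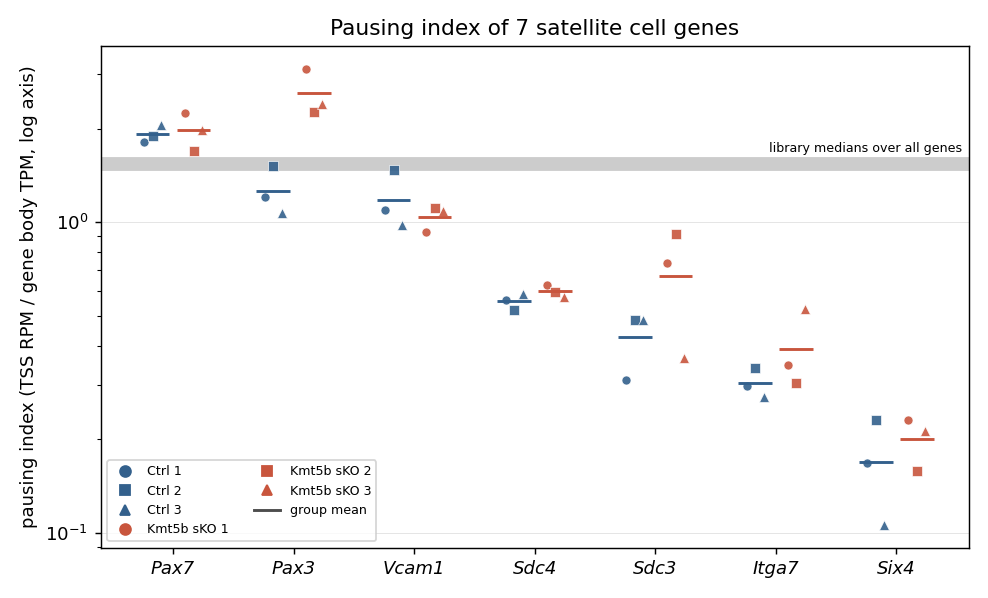
Pausing index (TSS RPM over gene body TPM, log axis) of 7 genes in each library, with a line at the group mean; the grey band spans the library medians over all 11698 genes, 1.47 to 1.61. *Pax7* lies above the band and *Six4* lowest, and *Pax3* is the gene whose Ctrl and *Kmt5b* sKO libraries do not overlap.

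For context, the same values were read for 4 further lists of satellite cell genes. The first holds partners and relatives of PAX7 and SIX4, of which 16 of 19 were tested. In the TSS region 0 were called (1.66% of all genes) and in the gene body 0 (2.99% of all genes). At an unadjusted p under 0.05 limma counted 1 in the TSS region (11% of all genes) and 1 in the gene body (15.9% of all genes), the latter being *Six2*. The median log2 fold changes were 0.21 and -0.09. *Six5*, a homeobox gene of the same family as *Six4*, had mean gene body levels of 61.2 TPM in Ctrl and 66.5 TPM in *Kmt5b* sKO. The lowest of the list was *Meox1* with 1.40 and 1.72 TPM.

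Other surface and adhesion genes of satellite cells numbered 21 tested of 23. In the TSS region 1 was called and rose (1.66% of all genes were called), and in the gene body 1 (2.99%). *Itga4*, whose alpha-4 integrin chain is a receptor for VCAM1, held 2.66, 8.04 and 3.22 RPM in the TSS region of the Ctrl libraries against 9.18, 17.2 and 28.1 RPM in the knockout libraries. All knockout libraries lay above all Ctrl libraries (log2 fold change 1.87, SE 0.46, adjusted p = 0.071, limma). Of all genes 15.6% separated by genotype in the TSS region, in either direction. In the gene body the log2 fold change of *Itga4* was 1.76 with an adjusted p of 0.10 from limma, just outside the threshold. The call of *Itga4* held in 6 of 14 alternatives, whose adjusted p ranged from 0.0095 to 0.41, and was lost without any 1 library except Ctrl replicate 2. *Ramp1*, a subunit of receptors of the calcitonin family, held 0.95, 1.92 and 1.26 TPM in the gene body of Ctrl and 4.57, 3.68 and 4.89 TPM in *Kmt5b* sKO. Here too the groups did not overlap (log2 fold change 1.40, SE 0.24, adjusted p = 0.065, limma), a separation that 12% of all genes showed in this direction. The call held in 9 of 14 alternatives but was lost on leaving out Ctrl replicate 1 or any 1 of the 3 knockout libraries. The highest gene body levels were those of the cadherin gene *Cdh15* (186 TPM in Ctrl and 177 TPM in *Kmt5b* sKO), *Ncam1* (144 and 186 TPM) and the chemokine receptor gene *Cxcr4* (133 and 141 TPM), and none of them was called. *Ramp2* was the lowest, with 1.13, 1.93 and 3.07 TPM across the Ctrl libraries against 0.99, 0 and 0 TPM across the knockout libraries (adjusted p = 0.15, limma). It passed the filter on gene body means only through Ctrl, with means of 2.04 TPM there and 0.33 TPM in *Kmt5b* sKO. Its gene body values and p-values are therefore no support for a difference between the genotypes. At an unadjusted p under 0.05 limma counted 4 of the 21 genes in the TSS region (11% of all genes), *Itga4*, *Ramp1*, *Itga6* and *Dag1*, the last 2 named after their values were seen, and 7 in the gene body (15.9% of all genes), of which 5 had positive estimates. *Ramp2*, with its limit from the filter, was among these 7. The list had a median log2 fold change of 0.21 for the TSS region and 0.03 for the gene body.

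Of the 14 genes linked to quiescence, 11 had a negative log2 fold change in each region, with medians of -0.30 (TSS region) and -0.36 (gene body). In the TSS region limma called 0 of them (1.66% of all genes), and 0 had an unadjusted p under 0.05 (11% of all genes). In the gene body 3 had one (15.9% of all genes). Of these *Spry1* (log2 fold change 0.53) and *Foxo3* (0.44), the latter named after its values were seen, had positive estimates and were not called. The other was the 1 gene called in the list (2.99% of all genes were called), and it fell. This was *Cdkn1b*, the gene of the cell cycle inhibitor p27, with 43.2, 51.8 and 42.8 TPM across the Ctrl libraries against 31.1, 28.8 and 28.9 TPM across the knockout libraries. Its groups did not overlap (log2 fold change -0.62, SE 0.13, adjusted p = 0.081, limma), as for 21.4% of all genes in either direction. The call held in 8 of 14 alternatives and was lost without any 1 library except Ctrl replicate 3. The highest levels belonged to *Hes1*, a Notch target (198 TPM in Ctrl and 224 TPM in *Kmt5b* sKO), *Spry1*, a brake on growth factor signalling (147 and 210 TPM), and *Gas1* (198 and 151 TPM). *Tenm4* was lowest with 0.67 and 0.47 TPM. None of these 4 was called. *Tenm4* passed the filter of 0.5 only through Ctrl in each region, with TSS means of 1.06 RPM in Ctrl and 0.44 RPM in *Kmt5b* sKO. It is among the 11 negative estimates of each region, where its sign is no support for a difference between the genotypes. For several genes of the list the Ctrl libraries were split, with replicate 3 at the level of the knockout. *Heyl* held 84.8, 92.2 and 20.4 TPM in Ctrl against 39.1, 21.4 and 32.5 TPM in the knockout. *Cdkn1c* held 24.0, 26.6 and 2.12 TPM against 3.51, 1.98 and 9.08 TPM. *Cdkn1b* and *Hes1* were not split in this way. The list medians thus rest in part on differences within Ctrl.

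Among 10 genes of early and late differentiation 9 had a positive log2 fold change in each region, with medians of 0.65 and 0.64. In the TSS region 1 was called and rose (1.66% of all genes were called). *Mef2c*, a transcription factor gene of differentiating muscle, held 26.1, 65.5 and 39.0 RPM there across the Ctrl libraries against 121, 58.1 and 150 RPM across the knockout libraries. The groups overlapped at Ctrl replicate 2 and *Kmt5b* sKO replicate 2 (log2 fold change 1.32, SE 0.33, adjusted p = 0.072, limma). The call held in 8 of 14 alternatives and was lost without Ctrl replicate 1, *Kmt5b* sKO replicate 1 or *Kmt5b* sKO replicate 3. At an unadjusted p under 0.05 limma counted 6 of the 10 in the TSS region (11% of all genes) and 4 in the gene body (15.9% of all genes), all with positive estimates. The 4 were *Acta1*, *Myh3*, *Des* and *Mef2c*, some named after their values were seen, and 0 of the 10 were called in the gene body (2.99% of all genes). Most of the list was lowest there in Ctrl replicate 3 and highest in *Kmt5b* sKO replicate 3. For *Myog* the values were 720, 925 and 382 TPM in Ctrl against 907, 790 and 1105 TPM in the knockout. *Mef2c* was lowest in Ctrl replicate 1, and *Mymx* was highest in Ctrl replicate 3. The genes share the libraries, so these counts are not separate evidence. The highest levels were those of *Myod1* (1091 TPM in Ctrl and 1179 TPM in *Kmt5b* sKO), *Myog* (676 and 934 TPM) and the actin gene *Acta1* (526 and 917 TPM), and the lowest that of *Ckm* (23.1 and 37.6 TPM). The summed mature fibre markers given above, which include *Ckm*, moved the same way, and their part in these values was not tested.

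**Figure D5:**
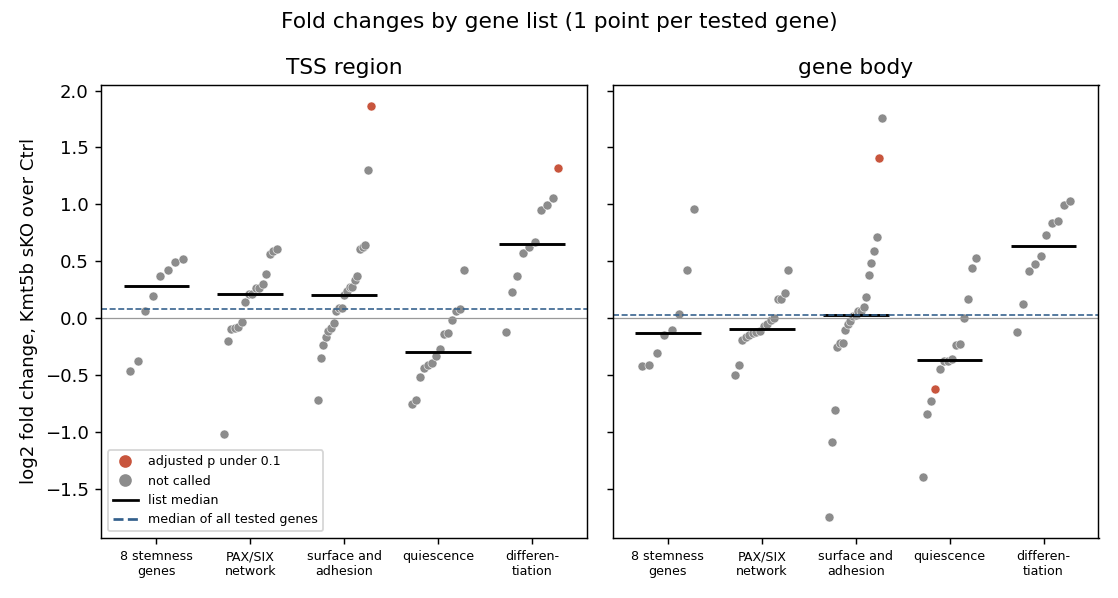
Log2 fold change (*Kmt5b* sKO over Ctrl) of each tested gene in the TSS region and the gene body, for the 8 stemness genes and 4 further lists, with the list median as a black line and the median of all tested genes as a dashed line. Coloured points are the called genes, *Itga4* and *Mef2c* in the TSS region and *Ramp1* and *Cdkn1b* in the gene body; none is among the 8 stemness genes.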

How the data were processed

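The authors trimmed the PRO-seq reads (Trimmomatic 0.39), aligned them to GRCm38 (STAR 2.6.1d), keeping a multi-mapping read at 1 random place, and took out duplicates (Picard 2.18.16). They counted sense reads per isoform of protein-coding genes and listed, for each gene, the isoform with the highest TSS level. The RPM values of the TSS region and the TPM values of the gene body were used as deposited by the authors; their methods name TPM for both, but 1 read is worth the same in every TSS region, as in RPM. All TSS regions are 400 nt long, and the planned test was kept.

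The stemness genes and the other lists were chosen with earlier results of these data known. The model was limma 3.58.1 (lmFit, eBayes with a trend, genotype as the only term) in R 4.3.3, on log2(value + 0.5) or, for the pausing index, on the plain log2 ratio where neither value was 0 in any library. Replicate numbers come from the labels, with no stated meaning, and were not a term of this model. Of the other lists, genes were named if called in either region or if among the 3 highest or the lowest in mean gene body level; some genes that this rule names are not reported here. Reads were recovered from the steps between values; every value checked (up to 100 reads) lay within 0.05 of a whole read. Alternatives, whose effects are given below, were edgeR 4.0.16 and DESeq2 1.42.0 on these reads, other pseudocounts, no filter, no trend, centring on library medians, a replicate block, a stricter threshold and leaving out each library. The same alternatives for the 4 called genes of the other lists were chosen after seeing the data. The tests were tried on simulated data. The listed isoforms had the same coordinates in GENCODE vM21 of GRCm38. The limit of 3 reads covers counting error only. Drawing used Python 3.11.15 and matplotlib 3.10.9.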

Additional observations from a re-analysis of the deposited data

How the results depend on the processing

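No alternative called a stemness gene except DESeq2, which called 1 of 8 in the gene body, *Cd34* (log2 fold change 2.31), beside 10.4% of all genes. *Cd34* passed the filter on gene body means only through the knockout libraries, so this call is no support for a difference between the genotypes. Leaving out each library gave 0 calls among the stemness genes in each region and for the pausing index. Of 301 recomputed log2 fold changes of the stemness genes, 285 kept their direction and their side of the threshold and 15 turned sign, all of them in estimates without a call. *Cd34* in the TSS region turned with a pseudocount of 0.1 (-0.38), after centring on library medians (-0.0035) and without Ctrl replicate 2, Ctrl replicate 3 or *Kmt5b* sKO replicate 2 (-0.76 to 0.70 over the 6 omissions). *Itga7* in the gene body turned with DESeq2 (-0.0021) and without Ctrl or *Kmt5b* sKO replicate 3 (-0.10 to 0.19). The *Pax7* pausing index turned after centring (-0.020) and without Ctrl or *Kmt5b* sKO replicate 1 (-0.065 to 0.14). *Six4* turned in the TSS region without Ctrl replicate 3 (-0.0030 to 0.47) and in the gene body without *Kmt5b* sKO replicate 2 (-0.21 to 0.012). *Vcam1* turned in the gene body without Ctrl replicate 3 (-0.51 to 0.0070) and for the pausing index without Ctrl replicate 2 (-0.29 to 0.0038). The causes were not tested.

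Counts over all tested genes moved much more. In the TSS region, where 207 genes were called, 0 genes were called by limma when either the filter on low means or the trend was dropped (1448 and 1292 at an unadjusted p under 0.05), and 64 at an adjusted p under 0.05. Of the gene body, with 372, edgeR called 748 genes, DESeq2 1295, and a threshold of 0.05 left 1. For the pausing index 1 gene was called with a pseudocount of 0.5, against 0. Leaving out 1 library gave between 1 (without Ctrl replicate 1) and 408 (without Ctrl replicate 2) calls in the TSS region, between 0 and 836 (without Ctrl replicate 3) in the gene body and 0 for the pausing index; the gene body count was 0 without Ctrl replicate 1 or any 1 of the *Kmt5b* sKO libraries. Centring on library medians changed the split of TSS calls from 116 higher and 91 lower to 104 and 122.

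Replicate numbers are shared by the genotypes. Deviations from the group means of libraries with the same number correlated between -0.16 and -0.034 in the TSS region and between -0.33 and -0.15 in the gene body. Libraries with the same number thus did not vary together, which cannot show whether they were prepared together. With the replicate number as a block, 0 genes were called in the TSS region (1141 at an unadjusted p under 0.05), 0 in the gene body (1441) and 0 for the pausing index (409), and 0 of the stemness genes; of the 4 called genes of the other lists none kept its call.

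Depth limits *Cd34*, with at most 23 reads in any region and library, and the TSS region of *Pax3*, with at most 22.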
